A study of Mus musculus with 24 samples.

Results

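Il17a, Il1b, Il6 and Lif, the genes of the cytokines IL-17A, IL-1 beta, IL-6 and leukemia inhibitory factor (IL for interleukin), were followed in 2 tissues around mouse teeth with ligature-induced periodontitis. They were chosen by name, as 4 of the 38321 gene IDs counted. All mice were wild type C57BL/6J females, 11 weeks old at the start, and every mouse carried a silk ligature around its maxillary second molars from day 7 until it was killed on day 14. The groups had sham surgery and corn oil vehicle (Sham), bilateral ovariectomy and vehicle (OVX), or bilateral ovariectomy and 1 µg of subcutaneous estradiol benzoate per day in 100 µL of corn oil (OVXE2), with treatment from day 4 after surgery. No mice without a ligature were among the samples, so each level below is one within inflamed tissue. Poly(A) RNA-seq was made from gingiva around the maxillary molars and from the dentoalveolar complex (DAC, the jaw bone with its teeth, cleaned of soft tissue), with 4 libraries per group and tissue and 24 altogether. Biological replicates is the labels' word for the 4 libraries, but whether each had its own mouse, and whether a mouse gave both tissues, is not stated in them. The p-values below therefore measure the spread between these libraries.

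IL-17A is made mainly by Th17 and gamma-delta T cells and acts through the receptor pair Il17ra and Il17rc on epithelium and stroma, which answer with neutrophil-attracting chemokines and antimicrobial proteins. IL-1 beta is made by myeloid cells as an inactive precursor that the inflammasome enzyme caspase-1 cleaves, and the receptor antagonist encoded by Il1rn competes with it for its receptor. IL-6 and leukemia inhibitory factor signal through the shared receptor chain gp130 to Stat3, and in bone, as IL-1 beta does, they bear on the balance of osteoblasts and osteoclasts.

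In GRCm38, Il17a (ENSMUSG00000025929) lies on the forward strand of chromosome 1 from 20730905 to 20734496, and Il1b (ENSMUSG00000027398) on the reverse strand of chromosome 2 from 129364570 to 129371139. Il6 (ENSMUSG00000025746) lies on the forward strand of chromosome 5 from 30013114 to 30019981, and Lif (ENSMUSG00000034394) on the forward strand of chromosome 11 from 4257557 to 4272514. All 4 are protein-coding. The bases just before the starts of Il6 and Lif are shown because this pair belongs to 1 cytokine family and stood higher in the DAC in every group. They come from RefSeq on GRCm38.p6, as chr5:30012864-30013113 for Il6 (250 bases) and chr11:4257318-4257556 for Lif (239 bases), both on the forward strand and written 5′ to 3′. Capitals mark matches to the AP-1 motif in both and to the NF-kappaB motif in Il6, in the forms given below.
Il6: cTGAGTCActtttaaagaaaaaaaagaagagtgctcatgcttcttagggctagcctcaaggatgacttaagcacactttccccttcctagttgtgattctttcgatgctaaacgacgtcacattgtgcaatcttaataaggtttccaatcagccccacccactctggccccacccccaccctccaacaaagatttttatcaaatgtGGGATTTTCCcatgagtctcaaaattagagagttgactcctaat
Lif: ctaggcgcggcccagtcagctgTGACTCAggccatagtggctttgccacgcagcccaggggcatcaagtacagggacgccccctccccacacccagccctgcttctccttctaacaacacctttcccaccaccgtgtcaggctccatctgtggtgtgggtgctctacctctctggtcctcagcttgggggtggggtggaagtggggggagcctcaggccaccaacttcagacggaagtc

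Motifs were searched on both strands in the 250 bases before the RefSeq start of 32851 promoters. The AP-1 motif TGANTCA was present 1 time each for Il17a (at −244), Il6 (at the far end of the window) and Lif (at −228), and in 6.75% of all promoters. Positions are counted back from the RefSeq start. For Lif that start lies some bases past the end of the sequence shown, so −228 is not counted from its last base. The NF-kappaB motif was present for Il6 alone of the 4 genes (GGGATTTTCC at −44) and in 1.41% of promoters. A TATAAA stood at −31 for both Il17a and Il1b, as in 12.4% of promoters at any place in the window. The full palindromic estrogen response element matched none of the 4 windows and 0.0639% of promoters. Its arm GGTCA alone, which overlaps the full element, matched 2 times before Il17a and at least 1 time in 35.2% of promoters. These are matches of letters and show no binding.

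The libraries held about 18598400 to 26001300 gene counts in gingiva and 14771800 to 29248400 in the DAC. Markers of the labelled tissues were present: epithelial marker genes took 8.40 to 11.4% of counts in gingiva and 0.0924 to 0.878% in the DAC, and osteoblast and osteocyte markers 0.00607 to 0.0156% and 0.548 to 1.13%. Several libraries stood apart. DAC OVX 1 held 14.0% of its counts in genes of nasal and other glands (0.283 to 2.62% in the other DAC libraries), DAC Sham 2 was the shallowest and held most brain neuron counts, and 8 of the 24 libraries had under 5% of their gene reads on the strand that was not counted (the other strand). Results were recomputed without DAC OVX 1 and DAC Sham 2, and in the 16 libraries above 5%, and are given below or with the effects of the processing where a call or a direction changed. Of DAC OVX and of gingiva OVXE2 only replicates 3 and 4 were above 5%.

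Levels are in CPM, gene counts scaled to a common library size with TMM factors, and for comparing genes with each other they were divided by the length of the merged exons in kilobases. Of the 4 genes Il1b was much the most abundant, from 27.1 ± 8.80 CPM per kilobase (SD, n = 4) in gingiva of Sham to 116 ± 25.7 in the DAC of Sham. Lif stood at 1.11 ± 0.156 to 4.52 ± 0.511 CPM per kilobase over the 6 groups, Il6 at 0.446 ± 0.495 to 3.98 ± 1.69, and Il17a at 0.503 ± 0.314 to 1.89 ± 0.827. Il17a and Il6 rested on few reads in gingiva. The lowest counts were 6 for Il17a in gingiva Sham 2 (exact Poisson 95% interval 2.20 to 13.1) and 3 for Il6 in gingiva Sham 3 (0.619 to 8.77), and these intervals cover counting error only. Il1b overlaps the antisense gene Il1bos on the other strand of chromosome 2 (129369897 to 129375748), which had 0 to 17 counts per library against 504 to 7696 for Il1b.

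**Figure D1:**
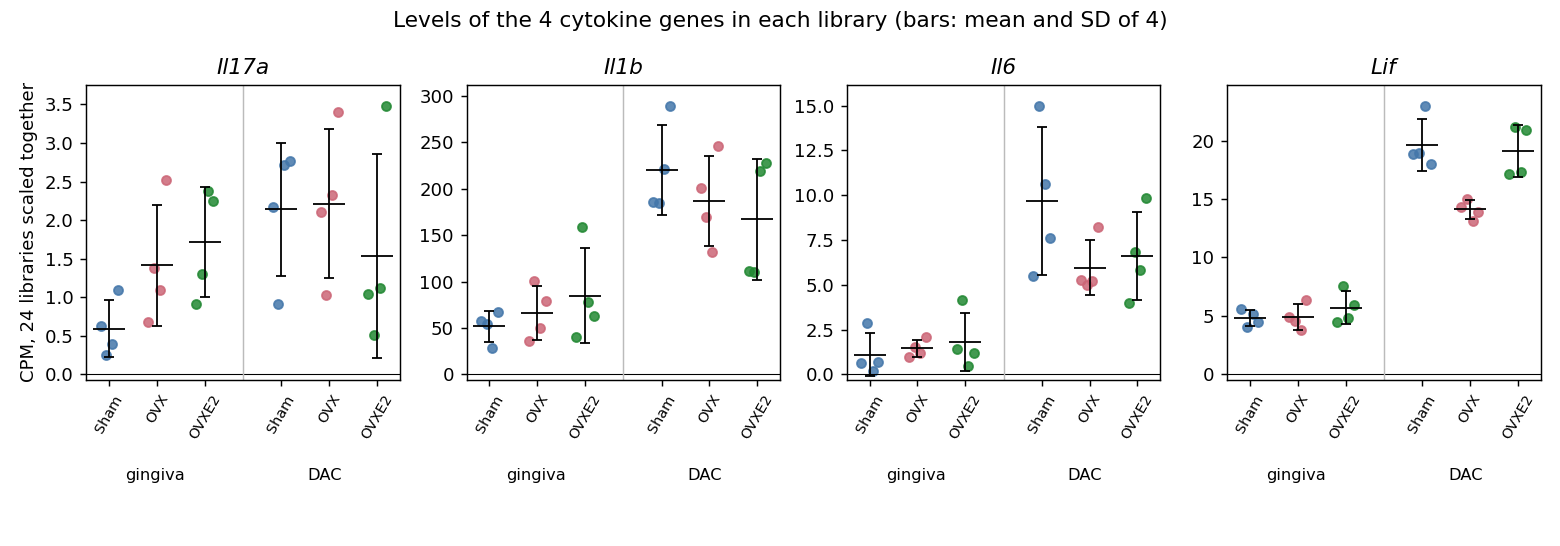
CPM of Il17a, Il1b, Il6 and Lif in each of the 24 libraries, scaled together, by tissue and group, with a linear axis for each gene. Points are libraries, bars the mean and SD of 4. For Il1b, Il6 and Lif the Sham and OVX points of the DAC lie above those of gingiva in the same group, and for Lif the 4 OVX points of the DAC (13.2 to 15.02) lie below all DAC points of Sham and OVXE2.

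Across tissues, Il1b, Il6 and Lif were higher in the DAC than in gingiva in all 3 groups, whereas Il17a passed the test in Sham only. These tests were made with edgeR's quasi-likelihood test on all 24 libraries, and passing means an adjusted p below 0.05 by Benjamini-Hochberg over 14209 genes. The tissues differ in most genes: 75.1% of genes passed in Sham, 72.4% in OVX and 72.1% in OVXE2, and 39.7, 38.1 and 38.0% of genes were called higher in the DAC and 35.4, 34.2 and 34.1% lower. A call of a single gene between the tissues is thus close to what most genes show. In bulk tissue fewer cells of a type and less RNA per cell cannot be told apart.

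Lif held the narrowest spread of the 4. In Sham it stood at 5.57, 4.07, 5.19 and 4.48 CPM in gingiva replicates 1 to 4 and at 18.8, 18.9, 22.9 and 17.96 in the DAC. All DAC libraries of Sham were above all gingival ones, and so they were in OVX and OVXE2. Such a gap with the DAC above was found in 36.6% of genes in Sham, 34.8% in OVX and 33.5% in OVXE2. The log2 difference of DAC against gingiva was 2.03 ± 0.16 (SE) in Sham with an edgeR adjusted p of 4.41e-10, 1.52 ± 0.16 in OVX and 1.75 ± 0.16 in OVXE2.

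Il6, scaled over both tissues, was at 0.624, 2.85, 0.167 and 0.687 CPM in gingiva of Sham and at 5.47, 14.95, 10.6 and 7.60 in the DAC. Gingiva Sham 2 was the highest of its group by far, and it still lay below every DAC library of Sham. The log2 difference was 3.13 ± 0.62 in Sham (edgeR adjusted p = 0.000109), 2.04 ± 0.59 in OVX (adjusted p = 0.00427) and 1.87 ± 0.58 in OVXE2 (adjusted p = 0.00696). In OVXE2 the groups overlapped, as gingiva OVXE2 2 (4.13 CPM) was above DAC OVXE2 1 (3.95 CPM). These sizes turned on the same gingival libraries: without gingiva Sham 2 the difference in Sham was 4.23, and without gingiva OVXE2 2 that in OVXE2 was 2.68, both past the test. In the libraries above 5% on the other strand the OVXE2 value was 2.71.

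Il1b averaged 220 ± 49.0 CPM (SD, n = 4) in the DAC of Sham and 51.7 ± 16.8 in gingiva, a log2 difference of 2.09 ± 0.40 with an edgeR adjusted p of 8.08e-05. In OVX it was 1.497 ± 0.39 (adjusted p = 0.00186). In OVXE2 the means were 167 ± 65.3 and 84.9 ± 51.5 CPM, the groups overlapped, and the log2 difference was 0.98 ± 0.39 (adjusted p = 0.0287). That last call was lost without replicate 1, 3 or 4 of gingiva OVXE2 or replicate 3 or 4 of DAC OVXE2, where the adjusted p reached 0.0969, and without the filter on low counts (adjusted p = 0.0902).

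Il17a averaged 2.14 ± 0.863 CPM in the DAC of Sham and 0.589 ± 0.368 in gingiva, a log2 difference of 1.85 ± 0.58 with an edgeR adjusted p of 0.00691. One DAC library, Sham 2 at 0.912 CPM, lay below the highest gingival one at 1.09 CPM. In OVX the log2 difference was 0.64 ± 0.55 (adjusted p = 0.298) and in OVXE2 −0.15 ± 0.54 (adjusted p = 0.807). In the 16 libraries with a higher share on the other strand these values were 1.44 (adjusted p = 0.0323) and −1.38 (adjusted p = 0.0404), so both then passed, in opposite directions. Replicates 3 and 4 alone stood for DAC OVX and for gingiva OVXE2 in this selection. It also left out DAC OVXE2 4 (3.47 CPM), the highest of its group. Over all alternatives the adjusted p ran from 0.0323 to 0.5997 in OVX and from 0.0404 to 0.996 in OVXE2.

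In the order of group means, every DAC group of Il1b, Il6 and Lif stood above every gingival group. For Il1b the order was DAC Sham, DAC OVX, DAC OVXE2, then gingiva OVXE2, OVX and Sham, and for both Il6 and Lif DAC Sham, DAC OVXE2, DAC OVX, then gingiva OVXE2, OVX and Sham. For Il17a the order mixed the tissues, with DAC OVX at 2.21 ± 0.969 CPM (SD, n = 4), DAC Sham, gingiva OVXE2 at 1.71 ± 0.714, DAC OVXE2 at 1.53 ± 1.32, gingiva OVX at 1.42 ± 0.786 and gingiva Sham last at 0.589 ± 0.368. Neighbours in these orders overlapped in their libraries, except DAC OVXE2 and DAC OVX for Lif and the lowest DAC and highest gingival group for Il6 and Lif.

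Shares of cell type markers differed between the tissues as well. Fibroblast markers took 0.546 to 1.58% of counts in gingiva and 13.3 to 17.9% in the DAC, neutrophil markers 0.149 to 0.350% and 0.221 to 0.645%, monocyte and macrophage markers 0.0550 to 0.0887% and 0.161 to 0.369%, and the T cell list 0.0120 to 0.0151% and 0.0141 to 0.0200%. Their part in the results was not tested. The fibroblast list includes collagen genes, and how much of its share in the DAC came from bone and tooth cells was not tested. All 10 neutrophil and all 14 T cell markers counted had reads in the DAC, and none of either list was at 0 throughout a tissue.

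**Figure D2:**
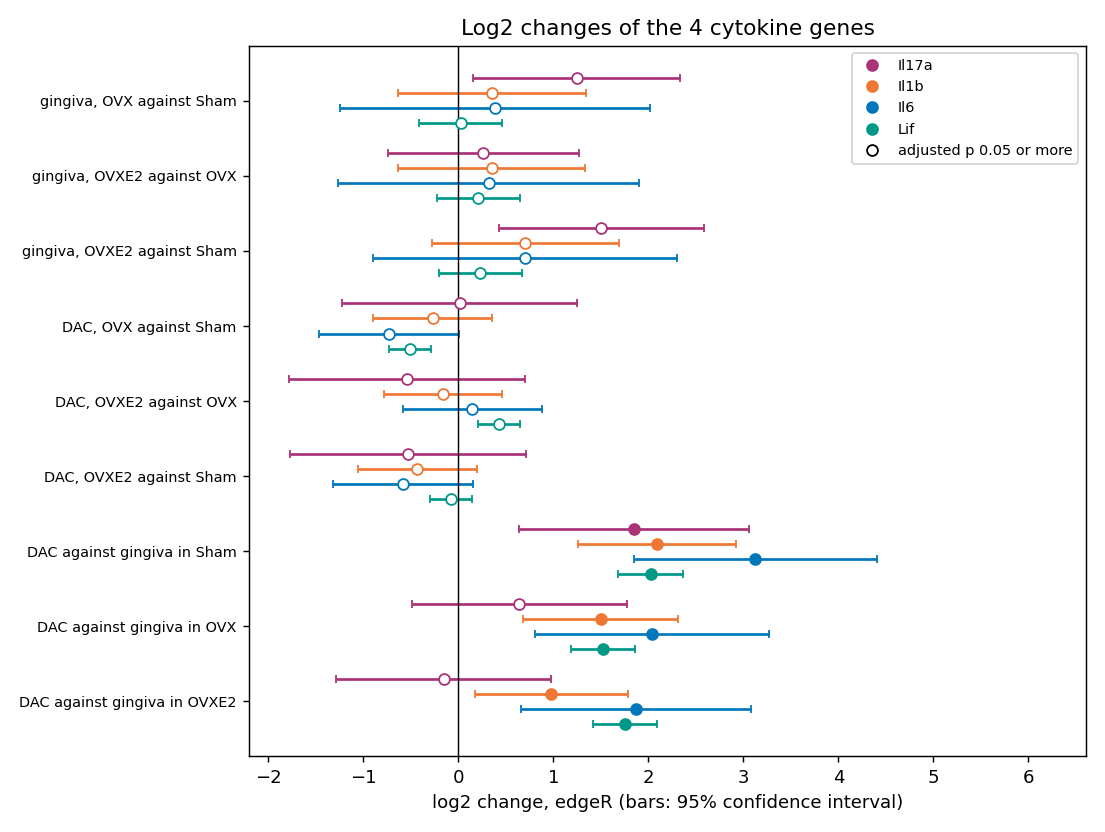
Log2 changes of the 4 genes from edgeR with 95% confidence intervals, for 6 comparisons within a tissue and 3 of the DAC against gingiva; filled circles passed at an adjusted p under 0.05. The 10 filled circles are all in the tissue comparisons, and the intervals of Lif are the narrowest.

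Between treatment groups of a tissue, none of the 4 genes passed edgeR's test. Few genes did: over 12680 genes in gingiva 0% passed in each of the 3 comparisons (0 genes by edgeR). At an unadjusted p under 0.05 there were 1530 genes (12.1%) for OVX against Sham, 1766 (13.9%) for OVXE2 against OVX and 939 (7.41%) for OVXE2 against Sham, and DESeq2 called 44, 91 and 8. Over 13617 genes in the DAC 0% passed for OVX against Sham (437 genes or 3.21% unadjusted, 10 by DESeq2), 2.13% for OVXE2 against OVX and 1.05% for OVXE2 against Sham.

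Lif in the DAC was the one case among the 4 genes where libraries of 2 treatment groups did not overlap. With the DAC scaled on its own, Lif stood at 19.9998, 19.9, 24.6 and 19.2 CPM in Sham, at 14.7, 15.5, 14.1 and 14.4 in OVX, and at 17.4, 21.7, 18.8 and 21.3 in OVXE2. Every OVX library was below every library of both other groups, and Sham and OVXE2 overlapped. OVX was lower than Sham by a log2 change of −0.51 ± 0.10 (SE), 0.702-fold with a 95% interval of 0.602 to 0.819. Its unadjusted p of 0.000348 was the third smallest of 13617 genes, yet the edgeR adjusted p was 0.874. The exact two-sided permutation test of 4 against 4 libraries gave p = 0.0286, the smallest that it can give. Any gene without overlap gets this p, so it restates the gap and adds nothing to it. Groups did not overlap in 2.92% of all genes in this comparison, and in 1.26% with OVX below. The share of 2.92% is close to the 0.0286 that random group labels would give.

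OVXE2 was higher than OVX by 0.43 ± 0.10 on the log2 scale, 1.35-fold with a 95% interval of 1.16 to 1.57, with an edgeR adjusted p of 0.0557 (exact permutation p = 0.0286). Here 6.73% of genes did not overlap, 3.22% with OVXE2 above. OVXE2 against Sham gave −0.08 ± 0.10 (95% interval −0.30 to 0.14). These comparisons share the OVX or the Sham libraries. DESeq2 called both differences of OVX, with adjusted p of 0.0148 against Sham and 0.00420 for OVXE2, and edgeR called the second without DAC Sham 3 (adjusted p = 0.0402). Over all alternatives the adjusted p ran from 0.0148 to 1 and from 0.00420 to 0.501. Without DAC OVX 1 and DAC Sham 2 the log2 changes were −0.53 and 0.43, and in the libraries above 5% on the other strand −0.59 and 0.43. In the DAC most osteoclast and endothelial markers had the direction of Lif in both comparisons. These lists are singled out here from among all marker lists. Brain neuron markers had a larger median change in OVX against Sham (−1.13, 10 of 10 lower), with 6 of 10 higher in OVXE2 against OVX (median 0.06). No correlation of Lif with the osteoclast or endothelial list was computed, and that with fibroblast markers over the 12 DAC libraries was r = 0.012. All 8 osteoclast markers had a lower value in OVX against Sham (median log2 change −0.24, beside −0.01 for all genes) and all 8 a higher one in OVXE2 against OVX (median 0.40, beside 0.02), with none past the test. They took 0.912 to 1.11% of counts in Sham, 0.579 to 0.959% in OVX and 1.04 to 1.18% in OVXE2. The 0.579% was that of DAC OVX 1, the library with 14.0% of counts in gland genes. The next lowest OVX library was at 0.874%, and OVX and Sham overlapped. Of the 8 endothelial markers 7 had a lower value in OVX against Sham (median −0.13), and all 8 a higher one in OVXE2 against OVX (median 0.41), of which 4 passed, among them Cdh5 of endothelial junctions (0.57 ± 0.08, edgeR adjusted p = 0.00306), beside 0.676% of all genes called higher. Their part in the differences of Lif was not tested. In gingiva the groups of Lif overlapped, with 4.62 ± 0.654 CPM (SD, n = 4) in Sham, 4.69 ± 1.06 in OVX and 5.42 ± 1.35 in OVXE2. The difference between the tissues in OVX against Sham was −0.50 ± 0.23 on the log2 scale (95% interval −0.97 to −0.03), with an unadjusted p of 0.0377 and an edgeR adjusted p of 0.575.

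Il6 in the DAC was at 5.82, 15.8, 11.4 and 8.12 CPM in Sham, 5.43, 5.16, 5.599 and 8.55 in OVX, and 4.01, 7.00, 6.34 and 10.03 in OVXE2. Sham 2 and Sham 3 were above all 8 libraries of the other groups, and the remaining values overlapped. OVX against Sham gave a log2 change of −0.73 ± 0.34 (95% interval −1.46 to 0.01, edgeR adjusted p = 0.874, exact permutation p = 0.114), which became −0.39 without DAC OVX 1 and DAC Sham 2. OVXE2 against OVX gave 0.15 ± 0.33 and OVXE2 against Sham −0.58 ± 0.33. In gingiva Il6 was at 0.598, 2.73, 0.160 and 0.655 CPM in Sham, 0.906, 1.48, 1.13 and 2.00 in OVX, and 1.32, 3.94, 0.452 and 1.15 in OVXE2. The second replicates of Sham and OVXE2 held the highest levels, and fibroblast markers were also highest there within their groups (1.03% and 1.28% of counts). OVX 2 held more of these markers (1.58%) with less Il6, and the part of fibroblasts in the levels was not tested beyond a correlation over the 12 libraries (r = 0.706, permutation p = 0.00977, adjusted 0.0537; rho 0.622; 0.499 without the 2 libraries farthest from the median). No comparison of Il6 in gingiva had an interval that left out 0, and the widest, OVX against Sham, ran from −1.24 to 2.02 around 0.39 and was centred on 1.495 without gingiva Sham 2.

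Il17a in gingiva was at 0.598, 0.241, 0.373 and 1.04 CPM in Sham, 0.647, 1.33, 1.04 and 2.41 in OVX, and 0.869, 1.25, 2.26 and 2.15 in OVXE2. Both ovariectomized groups reached above the highest Sham library and overlapped Sham at their low end. OVX was higher than Sham by a log2 change of 1.24 ± 0.50 (95% interval 0.15 to 2.34), with an unadjusted p of 0.0289, an edgeR adjusted p of 0.393 and an exact permutation p of 0.0857. OVXE2 was higher than Sham by 1.51 ± 0.50 (95% interval 0.43 to 2.58, adjusted p = 0.633, exact permutation p = 0.0571), and OVXE2 against OVX gave 0.26 ± 0.46. An unadjusted p under 0.05 was found for 12.1% of all genes in OVX against Sham and for 7.41% in OVXE2 against Sham. With the libraries above 5% on the other strand alone, OVX against Sham was 0.66 and OVXE2 against Sham 1.80. OVXE2 against OVX, which crossed 0 in its interval with all libraries, was 1.14 in the same selection, with none of these 3 past the test. Several of the 13 marker lists had mostly higher values in gingiva of OVX against Sham, while all 13 measured gland markers had a lower one (median −0.85). Neutrophil markers took 0.149 to 0.206% of counts in Sham, 0.255 to 0.350% in OVX and 0.256 to 0.337% in OVXE2. Such a share is a sum in which the most abundant genes weigh most, and whether it follows the number of neutrophils was not tested. In OVX against Sham 7 of 8 neutrophil markers had a higher value (median log2 change 0.43, beside 0.01 for all genes). The T cell list took 0.0128 to 0.0141, 0.0120 to 0.0144 and 0.0136 to 0.0151% of counts as a sum, and 10 of its 14 genes had a higher value in OVX against Sham (median 0.47). Of the monocyte and macrophage markers 8 of 10 (median 0.45) and of the fibroblast markers 9 of 9 (median 0.44) had a higher value there. In OVXE2 against Sham 8 of 8 neutrophil markers (median 0.59) and 9 of 14 T cell markers (0.13) had a higher value. So had 7 of 10 monocyte and macrophage (0.09), 8 of 9 fibroblast (0.17) and 9 of 9 skeletal muscle markers (1.47). None of these markers passed the test, and their part in the difference of Il17a was not tested.

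In the DAC Il17a was at 2.30, 0.962, 2.91 and 2.96 CPM in Sham, 2.16, 1.06, 2.49 and 3.52 in OVX, and 1.05, 0.521, 1.21 and 3.54 in OVXE2. Sham and OVX spanned nearly the same range, whereas OVXE2 had 3 libraries at the low end and 1 that was the highest of all 12. The log2 change was 0.01 ± 0.56 for OVX against Sham (95% interval −1.22 to 1.25) and −0.54 ± 0.56 for OVXE2 against OVX (−1.78 to 0.70). Without DAC OVXE2 4 the latter was −1.31, and in the libraries above 5% on the other strand −1.69, with an edgeR adjusted p of 0.411 and 0.391. OVXE2 against Sham was −0.53 ± 0.57, and −1.30 without DAC OVXE2 4. The difference between tissues in OVX against Sham was −1.20 ± 0.79 (edgeR adjusted p = 0.609), and −0.12 in the libraries above 5%. That in OVXE2 against OVX was −0.80 ± 0.77 (adjusted p = 0.796), and −2.81 in the libraries above 5% (adjusted p = 0.596).

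Il1b in gingiva was at 54.8, 51.8, 26.9 and 64.5 CPM in Sham, 33.9, 97.4, 47.5 and 75.3 in OVX, and 37.7, 151, 74.3 and 60.3 in OVXE2. A single library, OVXE2 2, accounted for the highest level, and the groups overlapped throughout. The log2 changes were 0.36 ± 0.45 for OVX against Sham, 0.35 ± 0.45 for OVXE2 against OVX and 0.70 ± 0.45 for OVXE2 against Sham. In the DAC Il1b was at 198, 194, 238 and 309 CPM in Sham, 206, 175, 142 and 256 in OVX, and 112, 113, 238 and 233 in OVXE2. The OVXE2 libraries formed a low and a high pair, and the low pair, OVXE2 1 and 2, also held the lowest shares of neutrophil markers of the 12 (0.221 and 0.235%, against 0.348 to 0.645%). OVX against Sham was −0.27 ± 0.28, OVXE2 against OVX −0.16 ± 0.28 and OVXE2 against Sham −0.43 ± 0.28 (95% interval −1.06 to 0.19), all with an edgeR adjusted p of 0.756 to 0.981.

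Among the partners of Il1b, the antagonist gene Il1rn stood the other way across tissues, with 326 ± 48.4 CPM (SD, n = 4) in gingiva and 102 ± 26.2 in the DAC of Sham (log2 difference −1.68 ± 0.23). Per kilobase, the ratio of Il1b to Il1rn was 0.462 ± 0.149 (SD, n = 4) in gingiva of Sham, 0.532 ± 0.245 in OVX and 0.734 ± 0.449 in OVXE2, and 6.39 ± 1.09, 5.51 ± 0.870 and 5.38 ± 2.25 in the DAC. Every DAC ratio (3.63 to 8.66) was above every gingival one (0.241 to 1.40). Of 10 measured IL-1 ligand and inflammasome genes 4 were called higher and 6 lower in the DAC in each of the 3 groups, beside 38.0 to 39.7% of all genes called higher and 34.1 to 35.4% lower. The lower ones in Sham included Casp1, the caspase that cleaves the precursor (−2.68 ± 0.15), its adaptor Pycard (−3.02 ± 0.24) and Il18, another substrate of it (−3.50 ± 0.27), while the inflammasome sensor Nlrp3 was higher (1.94 ± 0.38). Of 14 IL-1 receptor and signalling genes 7 were called higher and 4 lower in Sham, among them the IL-36 receptor gene Il1rl2 (−1.999 ± 0.09). No gene of these lists passed between treatment groups.

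Il17f is the closest relative of Il17a. In the DAC it was at 3.64, 0.321, 4.08 and 4.70 CPM in Sham, 2.24, 0.860, 3.27 and 4.95 in OVX and 0.633, 0.298, 0.540 and 0.912 in OVXE2. The OVXE2 libraries were low as a group, with overlap at OVX 2 and Sham 2, and OVXE2 4, the highest library of Il17a, held 0.912 CPM of Il17f. For Il17f, OVXE2 against OVX was −2.24 ± 0.71 on the log2 scale with an unadjusted p of 0.00895 and an edgeR adjusted p of 0.190. This gene was singled out after its values were seen. In the DAC of Sham, 7 of 11 measured IL-17 ligands and inducers were called higher and 2 lower, beside 39.7% and 35.4% of genes. Among the higher were Il23r, a receptor subunit of Th17 and gamma-delta T cells (1.90 ± 0.28), and Tgfb1 (3.00 ± 0.14). The list also counts among the higher Il12a (5.66 ± 0.40), which encodes a subunit of IL-12 and IL-35 and no IL-17 ligand. Of 13 IL-17 receptor and signalling genes 3 were called higher and 9 lower there, beside 39.7% and 35.4% of all genes, among them Il17rc (−2.46 ± 0.15), its adaptor Traf3ip2 (−1.67 ± 0.11) and Il17re (−3.29 ± 0.30), whereas the other receptor chain Il17ra was higher (0.48 ± 0.11).

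In the DAC against gingiva of Sham 39.7% of all genes were called higher and 35.4% lower. Of 24 IL-17 target genes 11 were called higher and 4 lower there. The higher ones included the matrix proteases Mmp9 (4.11 ± 0.23) and Mmp13 (4.39 ± 0.39) and the antimicrobial protein gene Lcn2 (3.44 ± 0.31), and the lower ones the epithelial defensin gene Defb14 (−3.79 ± 0.38). In OVX against Sham none passed in either tissue. In gingiva 23 of 24 had a higher value in OVX, with a median log2 change of 0.47, beside 51.8% of all genes and a median of 0.01. In the DAC 20 of 23 had a lower value, with a median of −0.26, beside 47.7% of all genes with a higher one and a median of −0.01. The smallest p in gingiva belonged to S100a8 (0.72 ± 0.13, edgeR adjusted p = 0.376) and S100a9 (0.70 ± 0.16), which are abundant in neutrophils and in the neutrophil list as well, and in the DAC to Saa3, an acute phase protein gene (−0.93 ± 0.35), and Tnfsf11, the gene of the osteoclast factor RANKL (−0.39 ± 0.15, adjusted p = 0.874). Between the tissues 22 of 24 had a lower value for the difference in OVX against Sham (median −0.74), beside 50.2% of all genes with a higher one, and none passed (0% of all genes by edgeR, 1212 genes or 8.53% unadjusted, 0 by DESeq2). Genes of such a list vary together, and no test of the list was made.

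With estradiol no IL-17 target gene passed in either tissue. In gingiva of OVXE2 against OVX 8 of 24 IL-17 target genes had a higher value (48.9% of all genes) with a median of −0.07, and against Sham 20 of 24 did (48.2% of all genes) with a median of 0.33. In the DAC 14 of 23 had a higher value against OVX (55.1% of all genes) with a median of 0.06, and 5 of 23 against Sham (49.4% of all genes) with a median of −0.22. These comparisons share their OVX, OVXE2 or Sham libraries. The Lcn2 gene, an antimicrobial iron-binding protein of neutrophils and epithelium, came nearest in the DAC of OVXE2 against OVX (−0.84 ± 0.22, edgeR adjusted p = 0.0806). The difference between tissues of OVXE2 against OVX was called for 0.19% of all genes and for no gene of the pathway lists.

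In the DAC of Sham, 39.7% of all genes were called higher and 35.4% lower, a background for each gp130 list below. The gp130 ligands, the family of Il6 and Lif, had 5 of 7 genes called higher there, Il6 and Lif among them, and 1 lower. Osm, oncostatin M, was at 1.78 ± 0.40 and Ctf1, cardiotrophin-1, lower at −0.58 ± 0.15. In OVX against Sham all 6 measured in gingiva had a higher value (median 0.21) and 6 of 7 in the DAC a lower one, with none past the test, beside 51.8% of all genes with a higher value in gingiva and 47.7% in the DAC. Among the lower values in the DAC were those of Il11 (−0.95 ± 0.42), Il6, Lif and Osm. Of 10 gp130 receptor and signalling genes 5 were called higher and 3 lower in the DAC of Sham, among them the receptor genes Cntfr (2.55 ± 0.26) and Il11ra1 (1.38 ± 0.22). The Il6 receptor gene Il6ra was lower at −0.72 ± 0.15. Of 10 gp130 target genes 6 were called higher and 2 lower, with the protease inhibitor gene Timp1 at 4.30 ± 0.40 and Junb at −0.81 ± 0.13. In OVX against Sham 8 of the 10 had a lower value in the DAC (median −0.26, beside −0.01 for all genes), led by Junb (−0.40 ± 0.14, edgeR adjusted p = 0.874).

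In the DAC of Sham 39.7% of all genes were called higher and 35.4% lower. Of the remaining cytokines linked to periodontitis, 5 of 10 were called higher there and 1 lower. The higher ones included Csf1 (2.21 ± 0.10) and Tnfsf11 (3.40 ± 0.36), both needed for osteoclasts to form. In comparisons of treatments 1 gene of all 9 pathway lists passed. Il12a, a subunit of IL-12 and IL-35, fell in the DAC of OVXE2 against OVX by 0.94 on the log2 scale with an edgeR adjusted p of 0.0149, beside a background of 1.45% of genes called lower.

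**Figure D3:**
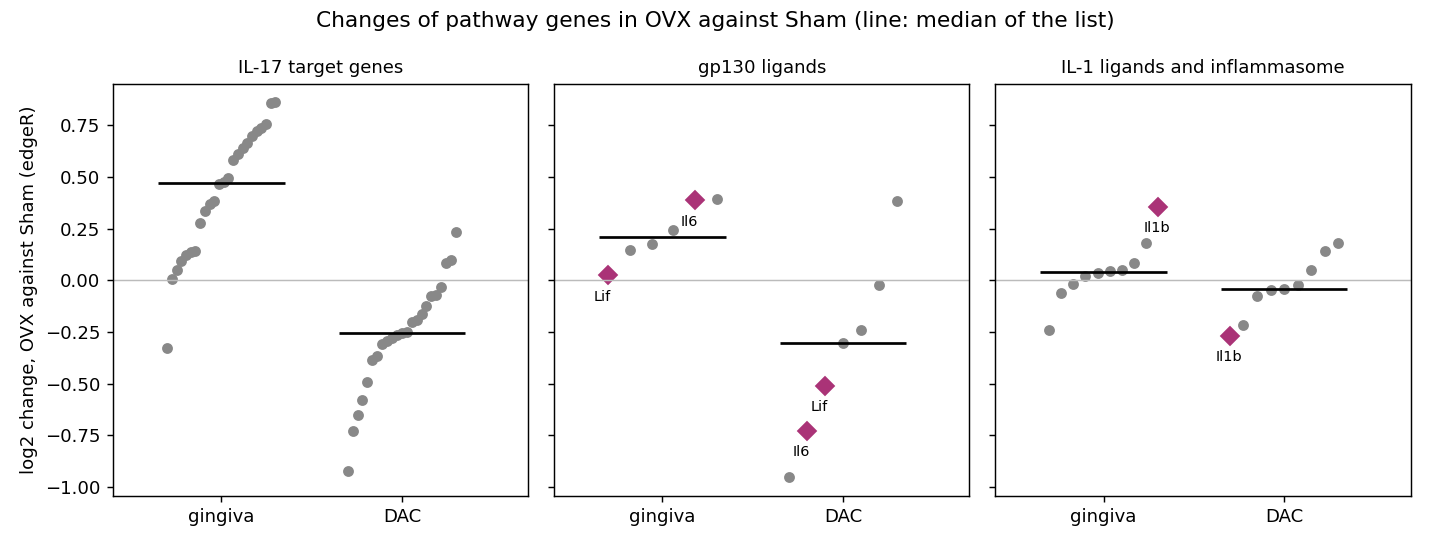
Log2 change in OVX against Sham of each measured gene of 3 lists in gingiva and in the DAC; lines are list medians and diamonds Il1b, Il6 and Lif. IL-17 target genes lie mostly above 0 in gingiva (23 of 24) and below 0 in the DAC (20 of 23), and no gene shown passed the test.

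The genes whose log2 CPM varied most like each cytokine gene over the 12 libraries of both tissues were taken from 12118 genes by the smaller of 2 Pearson correlations, as a description. Il17a was most like Il17f (r = 0.81 in gingiva and 0.84 in the DAC), Cyp27b1, which makes active vitamin D, the fungal receptor gene Clec7a, Il2ra, a chain of the IL-2 receptor, and Rgs1. Il1b was most like Sirpb1b (0.90 and 0.91), the decoy receptor gene Il1r2, Osm, Clec4d, a myeloid lectin gene, and Gm5150. Il6 was most like Rgs16 (0.82 and 0.81), the BMP antagonist gene Grem1, the fibroblast growth factor gene Fgf7, Mmp3 and Tnfsf11. Lif had weaker matches, with Artn, the neurotrophic factor artemin (0.66 and 0.72), the BMP receptor gene Acvr1, the protease gene Furin, Pip5k1c and Tshz3. The points share libraries, so depth and makeup enter every r.

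**Figure D4:**
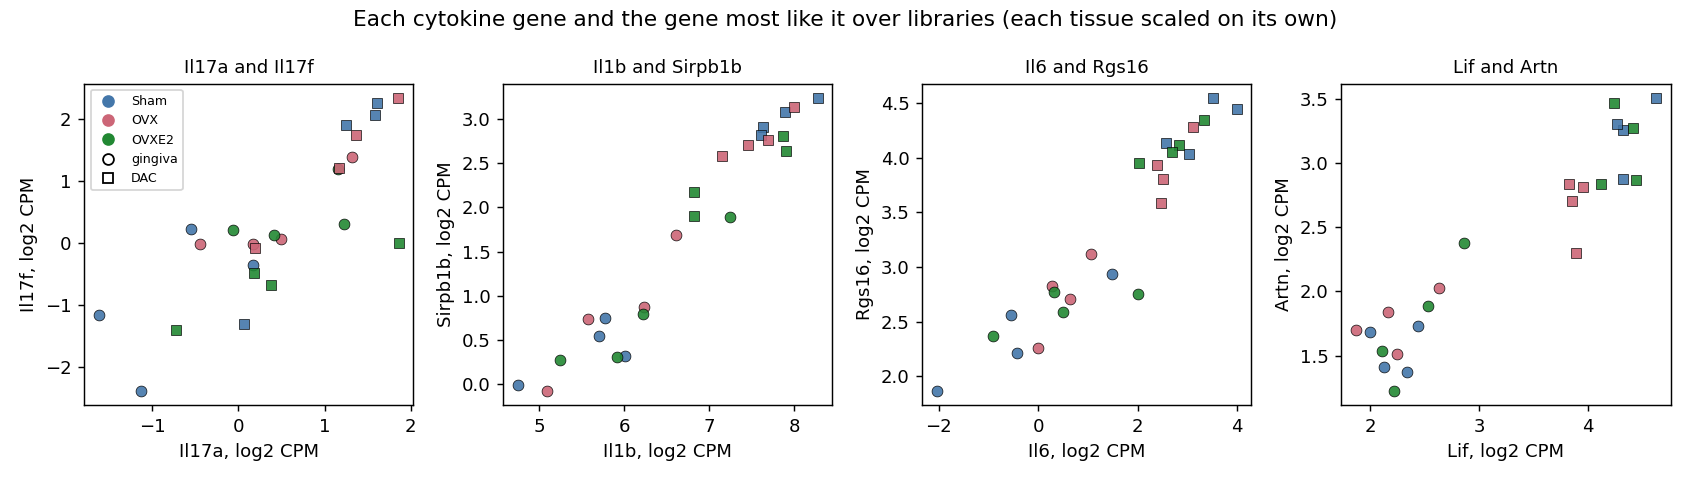
Log2 CPM of each cytokine gene and of the gene most like it in the 24 libraries, with each tissue scaled on its own; colours are groups, circles gingiva and squares DAC. Il1b and Sirpb1b lie close to a line in both tissues (r = 0.90 and 0.91), and Lif and Artn scatter more (0.66 and 0.72).

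In total 22 relations were computed between the 4 genes, or between a gene and a marker list, over the 12 libraries of a tissue, with permutation tests of 100000 resamples and Benjamini-Hochberg adjustment. The 2 that passed joined a gene to a cell type list. Il1b and the mean log2 CPM of neutrophil markers in gingiva gave r = 0.911 (permutation p = 6e-05, adjusted 0.00132; Spearman's rho 0.860, adjusted 0.0119). It was 0.820 without the 2 libraries farthest from the median of Il1b, 0.935 between deviations from group means and 0.792 in the 8 libraries above 5% on the other strand. The share of counts of this list ran otherwise in gingiva of OVXE2. That share was highest in OVXE2 1 (0.337%), with the lowest Il1b of the group (37.7 CPM). It was lowest in OVXE2 2 (0.256%), with the highest Il1b (151 CPM). Il17a and the T cell list in the DAC gave r = 0.844 (permutation p = 0.00065, adjusted 0.00715; rho 0.790, adjusted 0.0373), 0.761 without 2 libraries, 0.934 between deviations and 0.911 in the 8 libraries. The neutrophil list holds Il1r2, an IL-1 receptor gene, and the T cell list Il23r, a gene of the IL-17 ligand and inducer list. Il1b and the neutrophil list in the DAC gave r = 0.718 (permutation p = 0.00888, adjusted 0.0537; rho 0.462), which was 0.162 without the 2 libraries, so that it rests on them, while it was 0.716 between deviations from group means and 0.848 in the 8 libraries above 5%. No pair among the 4 genes passed, and the closest was Il17a with Il1b in the DAC (r = 0.683, permutation p = 0.0145, adjusted 0.0636; rho 0.699; 0.583 without 2 libraries). Il6 and Lif, which share a receptor chain, gave r = 0.240 in gingiva and 0.528 in the DAC (permutation p = 0.452 and 0.0775, adjusted 0.622 and 0.171; rho 0.0839 and 0.552; −0.0655 and 0.366 without 2 libraries).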

How the data were processed

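The authors deposited raw counts per gene ID, 1 table for each of 24 libraries, in the layout of STAR's gene counting. Per the submitters' processing notes, fastp, STAR and DESeq2 were used with GRCm38 (mm10); their versions, and the annotation release, have the status not given in the sources used here. Of the 3 count columns, that of the opposite strand was used, since it held most gene reads in every library; 3.38 to 9.03% lay on the other strand. The 4 rows that name no gene (30.5 to 42.5% of reads) were left out. GENCODE M21 gave symbols for 38186 of the 38321 IDs, positions and merged exon lengths. Counts of libraries of a group differed beyond sampling noise.

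Genes passing filterByExpr were tested, after TMM scaling, in edgeR 4.0.16 (robust glmQLFit, glmQLFTest; R 4.3.3). The 12 libraries of a tissue formed 1 fit with 9 residual degrees of freedom, and all 24 formed the fit for tissue comparisons with 18. All 4 genes passed the filter in every fit. Adjustment was by Benjamini-Hochberg over all genes of a fit. Beside it stands an exact two-sided permutation test of log2 CPM (prior count 2), 4 against 4. The test was tried on simulated data.

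The 4 genes, 9 pathway lists and 13 marker lists were chosen with earlier results of these data known. The lists hold 289 symbols, of which 223 were counted; the others are not analysed here. From each pathway list up to 4 called genes with the smallest p were eligible for naming, or 2 as values where none passed; a few others are given as partners of the 4 genes, chosen after their values were seen. Alternatives were RLE scaling, DESeq2 1.42.0, no filter, the replicate number as a block, counts of either strand, only the groups compared, leaving out each library, and 2 selections of libraries added after the data were seen. RefSeq promoters are those of GRCm38.p6; protein sequences were not used here. Some results on single genes of the lists are not reported here.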

Additional observations from a re-analysis of the deposited data

Results flagged for a closer look

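Of 24 groups of 4 libraries, 1 for each gene, tissue and treatment, 2 held a library whose gap to the nearest of the others took up more of the group's range than Dixon's 95% critical value for 4 samples. Chance flags about 1 in 20 groups. Il6 in DAC OVX replicate 4 stood at 8.55 CPM, above the other 3 OVX libraries by 0.870 of the range. Lif in DAC Sham replicate 3 stood at 24.6 CPM, above the other 3 Sham libraries by 0.852 of the range. Without DAC Sham 3, the log2 difference of Lif in OVX against Sham was −0.42.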

How the results depend on the processing

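The 4 genes gave 44 results and 1088 values under the alternatives. Of these 1050 kept direction and side of the threshold, 27 turned direction, 5 newly passed and 6 no longer did. No value that turned direction had passed the test. Within a tissue, deviations of same-numbered libraries of different treatment groups correlated at −0.531 to 0.285 for gingiva and −0.348 to 0.348 for the DAC. Their medians were −0.00333 and 0.00481. Whether same-numbered gingiva and DAC libraries shared a mouse was not examined. The replicate block moved the genes called in the DAC for OVXE2 against OVX from 290 to 250. Under the block Il6 in gingiva, OVXE2 against OVX, was −0.0881 and Il17a in the DAC, OVX against Sham, −0.000886. In the libraries above 5% on the other strand, with 16 samples, log2 changes in gingiva were −0.18 for Il6 and −0.0900 for Lif in OVX against Sham, and for Il6 −0.54 in OVXE2 against OVX and −0.71 in OVXE2 against Sham. There Il6 in the DAC, OVXE2 against OVX, was −0.29 and its difference between tissues 0.27, and Il17a in the DAC against gingiva was 1.44 in OVX and −1.38 in OVXE2. DESeq2 gave Lif in the DAC −0.51 for OVX against Sham and 0.43 for OVXE2 against OVX, both past its threshold. Without the filter Il1b in the DAC against gingiva of OVXE2 was 0.92, and without DAC OVX 1 and DAC Sham 2 Il17a in OVX against Sham was −0.20. The causes were not tested.

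Leaving out 1 library in turn gave these ranges of log2 change. For Il17a they were −0.266 to 0.250 in the DAC, OVX against Sham, and −0.944 to 0.138 in the DAC against gingiva of OVXE2. For Il1b they were 0.743 to 1.47 in the DAC against gingiva of OVXE2, −0.348 to 0.000658 in the DAC and −0.144 to 0.629 in gingiva, both OVXE2 against OVX. For Il6 in OVXE2 against OVX they were −0.0905 to 0.344 in the DAC, −0.496 to 0.632 in gingiva and −0.481 to 0.645 between tissues, and in gingiva −0.109 to 1.81 for OVXE2 against Sham. For Lif they were 0.384 to 0.489 in the DAC, OVXE2 against OVX, −0.126 to 0.00700 for OVXE2 against Sham, and −0.126 to 0.134 in gingiva, OVX against Sham. Counts of called genes ran from 39 to 598 for OVXE2 against OVX in the DAC and from 16 to 340 for OVXE2 against Sham, lowest in the libraries above 5% and highest by DESeq2. In gingiva, OVXE2 against OVX, they reached 91 by DESeq2 and 60 without gingiva OVX 3. Depth limits Il17a and Il6 in gingiva, with 3 to 98 counts a library.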
